A study of Homo sapiens with 2 samples.

Results

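The 8 genes described here encode the catenins and the plaque proteins of desmosomes: JUP, CTNNA1, CTNNB1, CTNND1, DSP, PKP2, PKP3 and PKP4. They were chosen by name, and all 8 were found among the 58735 genes of the deposited table. The cells were A2780, an established human ovarian cancer line, and there were 2 poly(A)-selected libraries, 1 per group. The group labelled shControl is named wild type in its genotype label and is an empty-vector control in the design text. The group labelled shJAM3 is described as a stable knockdown of JAM3, the gene of junctional adhesion molecule C, which the design text attributes to siRNA although the titles read sh. The sources used here do not give the number of clones or constructs.

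Cell-cell adhesion by cadherins depends on proteins bound to the cadherin tails inside the cell. At adherens junctions, beta-catenin or its close relative plakoglobin (JUP) joins a classical cadherin to alpha-catenin, which binds actin, while p120 catenin (CTNND1) holds the cadherin at the membrane. At desmosomes, plakoglobin and the plakophilins join desmogleins and desmocollins to desmoplakin (DSP), which anchors intermediate filaments. Beta-catenin also carries canonical WNT signalling to its target genes, and a destruction complex keeps its free pool low.

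No test of the conditions could be made with 1 library in each group, and no p-value is given. Every difference below is between these libraries. Bracketed ranges are 95% intervals for counting error only, from recovered fragment numbers, and they leave out the spread between cultures. In bulk RNA, fewer cells with a transcript and less of it per cell cannot be told apart. The libraries held 15570262 and 16455079 fragments. Levels are in FPKM, the fragments per kilobase of gene after scaling for library size. JAM3 was barely detected in either library, at 0.215 FPKM from 18 fragments in shControl against 0.154 FPKM from 14 in shJAM3. Its ratio was 0.716 (0.330 to 1.52), so a difference in the targeted gene was not detectable at this level and depth. A gene was taken as measured if its FPKM averaged 1 or more over the libraries, which held for 12214 genes.

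JUP, DSP and PKP3 were lower in shJAM3, with ratios of shJAM3 to shControl of 0.634, 0.781 and 0.685. CTNNA1, CTNNB1, CTNND1 and PKP4 were higher, with ratios of 1.10, 1.19, 1.15 and 1.26, although CTNNA1 changed side when genes were centred on the median of genes of like level and GC content, and PKP3 was near 0 once centred on GC content. All 7 intervals excluded 1, which 33.6% of measured genes did on the lower side and 33.0% on the higher side. The differences were small. None of the 7 measured members was 2-fold lower or higher on the log2(FPKM + 1) scale, against 2.10% and 1.30% of measured genes. JUP alone was past 1.5-fold (a log2 ratio of 0.58 in size), against 9.82% of measured genes that were at least 1.5-fold lower and 7.11% that were at least 1.5-fold higher. That call ended when each gene was centred on the median of genes of like GC content, and also with centring on level and GC. The median log2 ratio of the 7 was 0.14, beside 0.0046 for all measured genes, of which 49.5% were lower. PKP2 was below 1 FPKM and is given by its values only.

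**Figure D1:**
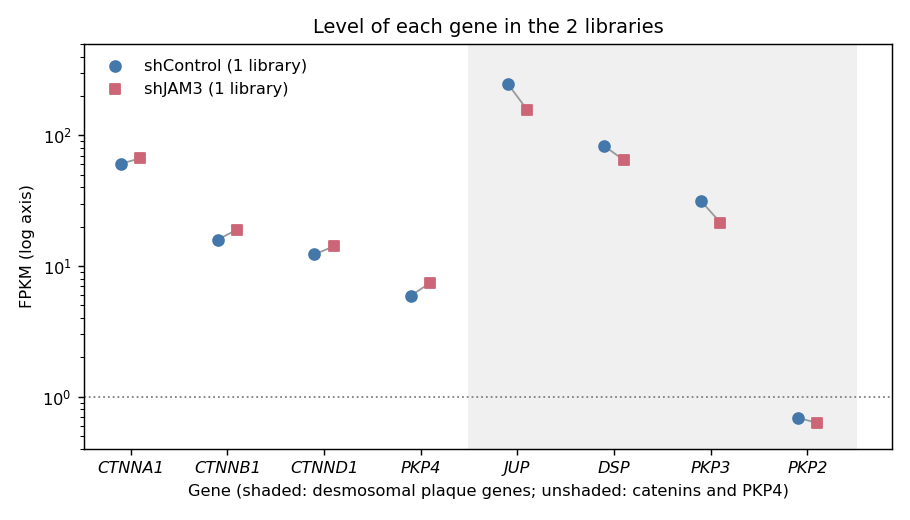
FPKM (log axis) of the 8 genes in the shControl library (circles) and the shJAM3 library (squares), 1 library each, with the desmosomal plaque genes shaded and a dotted line at 1 FPKM. JUP, DSP and PKP3 are lower in shJAM3, CTNNA1, CTNNB1, CTNND1 and PKP4 are higher, and PKP2 lies under the line. Shading JUP and leaving PKP4 with the catenins was a choice, since each is found at both kinds of junction.

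The members differ in the base composition of their RNA. JUP and CTNNB1 are related proteins built of armadillo repeats, with 745 and 781 residues and 69.4% identity over 743 aligned positions. Their genes write that shared protein in different codons. The 30 codons where the pair is most alike are shown because they hold the contrast in a short space, and capitals mark the third base of each codon, the wobble position (GENCODE 29 reference transcripts, 5′ to 3′).
JUP codons 324 to 353: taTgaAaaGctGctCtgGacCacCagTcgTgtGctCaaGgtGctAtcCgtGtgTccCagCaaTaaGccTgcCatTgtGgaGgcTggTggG
CTNNB1 codons 333 to 362: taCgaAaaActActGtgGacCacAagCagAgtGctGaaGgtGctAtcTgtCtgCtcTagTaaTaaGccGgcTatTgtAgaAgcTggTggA
These stretches encode the same residue at 29 of 30 positions. They differ at 20 of 90 bases, and 18 of those 20 are wobble positions. Wobble positions are G or C in 19 codons of the JUP stretch and 13 of the CTNNB1 stretch. The contrast is wider over the whole coding sequence, where 84.2% of wobble positions are G or C in JUP and 41.1% in CTNNB1.

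The same contrast separates PKP3 from PKP4, members of the p120 catenin family with 32.5% identity over 788 aligned positions. Wobble positions are G or C in 85.7% of PKP3 codons and 50.2% of PKP4 codons. Their most similar 30 codons, with the same marking, are given for comparison.
PKP3 codons 477 to 506: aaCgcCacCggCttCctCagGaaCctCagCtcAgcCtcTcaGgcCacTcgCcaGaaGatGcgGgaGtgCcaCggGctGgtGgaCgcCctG
PKP4 codons 692 to 721: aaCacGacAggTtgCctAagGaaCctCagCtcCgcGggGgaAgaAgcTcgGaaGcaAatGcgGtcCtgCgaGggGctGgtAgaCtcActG
Here 19 of 30 residues are identical and 28 bases differ, of which only 15 are wobble positions. Wobble positions are G or C in 27 and 21 codons. Across genes the log2 ratio varied with transcript GC, and the cause was not tested. With measured protein-coding genes split by transcript GC into 10 bands, the median log2 ratio was 0.23 in the lowest band and -0.44 in the highest, with r = -0.50 across 10496 genes, which are not independent replicates. The longest transcripts of JUP and PKP3 have a GC content of 61.5% and 66.7%, and those of the other 6 members lie between 43.5% for CTNNB1 and 47.9% for DSP.

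**Figure D2:**
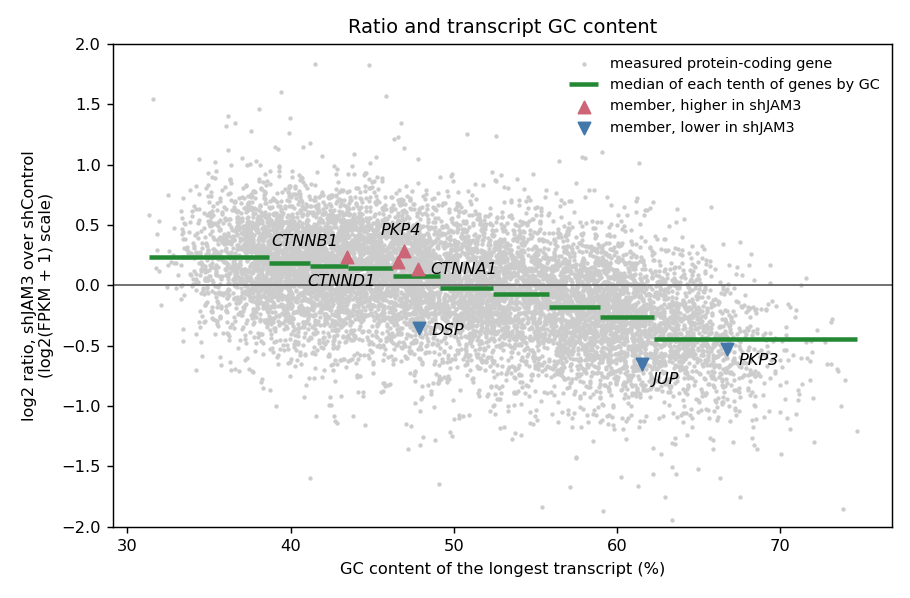
Log2 ratio between the libraries (shJAM3 over shControl, log2(FPKM + 1) scale) against the GC content of the longest transcript in percent, for measured protein-coding genes (grey, with 7 genes outside the axis), the median of each of 10 GC bands (bars) and the 7 measured members (triangles). JUP and PKP3 lie at high GC with lower ratios, while DSP lies near CTNNA1 in GC and below it in ratio.

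Plakoglobin, which works in both kinds of junction, was the most abundant member. JUP (ENSG00000173801) lies on chromosome 17 at 41754604 to 41786931 on the minus strand of GRCh38. It was at 248.3 FPKM in shControl, from 18850 fragments, and at 157.5 FPKM in shJAM3, from 12985 fragments. Only 96 of 19932 protein-coding genes were above it in shControl and 166 in shJAM3. The ratio was 0.634 (0.620 to 0.649), the lowest of the members, and 7.50% of measured genes had a lower log2 ratio. Centred on the median of its GC bin (20 bins of protein-coding genes), its log2 ratio went from -0.65 to -0.35. Within that bin of 525 genes, 17.7% had a lower ratio than JUP.

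Desmoplakin, the plakin that ties the plaque to intermediate filaments, was the second desmosomal gene to be lower. DSP (chromosome 6, 7541575 to 7586717, plus strand) was at 82.8 FPKM in shControl against 64.7 FPKM in shJAM3, from 12842 and 10890 fragments. The ratio was 0.781 (0.761 to 0.801). Unlike JUP and PKP3, DSP moved away from 0 with GC centring, from a log2 ratio of -0.35 to -0.42, and 12.0% of the genes in its GC bin had a lower ratio. CTNNA1 stands in the same GC bin, with a GC content of 47.8% against 47.9%, and had a ratio above 1. The ratio of DSP relative to that of CTNNA1 was 0.709 (0.682 to 0.737), a value that does not depend on how the libraries were scaled.

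The plakophilins add lateral links in the desmosomal plaque, and their members differed from each other. PKP3 (chromosome 11, 392614 to 404908, plus strand), the epithelial plakophilin that binds most desmosomal cadherins, was at 31.4 FPKM in shControl against 21.5 FPKM in shJAM3, from 1828 and 1360 fragments. Its ratio was 0.685 (0.638 to 0.735). With GC centring PKP3 went from -0.53 to -0.03 on the log2 scale, close to the median of genes of its composition, and 46.7% of that GC bin had a lower ratio. PKP2 (chromosome 12, 32790745 to 32896840, minus strand), the plakophilin of heart and simple epithelia, was low, at 0.693 and 0.630 FPKM. With 75 and 74 fragments its ratio was 0.909 (0.650 to 1.27), so no difference was detectable at this depth. PKP1, the plakophilin of stratified epithelia, had 7 and 9 fragments. PKP2 had 0.0221 times the FPKM of PKP3 in shControl and 0.0293 times in shJAM3.

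PKP4, also called p0071, is closer to p120 catenin than to the other plakophilins and is found at both kinds of junction. The PKP4 protein shares 39.0% of aligned residues with CTNND1 and 32.5% with PKP3. PKP4 (chromosome 2, 158456964 to 158682879, plus strand) was at 5.94 FPKM in shControl against 7.46 FPKM in shJAM3, from 869 and 1185 fragments. The ratio was 1.26 (1.15 to 1.37), the highest of the members, and 24.4% of measured genes had a higher log2 ratio. CTNND1 (chromosome 11, 57753243 to 57819546, plus strand), which encodes p120 catenin, was at 12.3 and 14.1 FPKM with a ratio of 1.15 (1.08 to 1.23). GC centring took PKP4 from a log2 ratio of 0.29 to 0.20 and CTNND1 from 0.19 to 0.11. In their GC bins, 70.9% of genes had a lower ratio than PKP4 and 62.3% a lower ratio than CTNND1. The ratio of CTNND1 relative to PKP4 was 0.917 (0.821 to 1.02), so the pair did not differ beyond counting error. The ratio of PKP3 relative to PKP4 was 0.546 (0.487 to 0.611), and 0.851 from log2(FPKM + 1) ratios with each gene centred on its GC bin.

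Alpha- and beta-catenin, the core of the adherens junction complex, were slightly higher in shJAM3. CTNNA1 (chromosome 5, 138610967 to 138935034, plus strand) was at 60.7 FPKM in shControl against 66.8 FPKM in shJAM3, a ratio of 1.10 (1.07 to 1.13). Its log2 ratio of 0.14 went to 0.065 with GC centring and to -0.046 with centring on level and GC, the single reversal among the members that differed beyond counting error. CTNNB1 (chromosome 3, 41194741 to 41260096, plus strand) was at 15.9 and 19.0 FPKM, from 2921 and 3775 fragments, a ratio of 1.19 (1.13 to 1.25). Its log2 ratio of 0.24 went to 0.11 with GC centring. In their GC bins, 59.0% of genes had a lower ratio than CTNNA1 and 59.6% a lower ratio than CTNNB1. CTNNB1 relative to CTNND1 was 1.03 (0.952 to 1.12), and CTNNA1 relative to CTNNB1 was 0.925 (0.874 to 0.979).

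**Figure D3:**
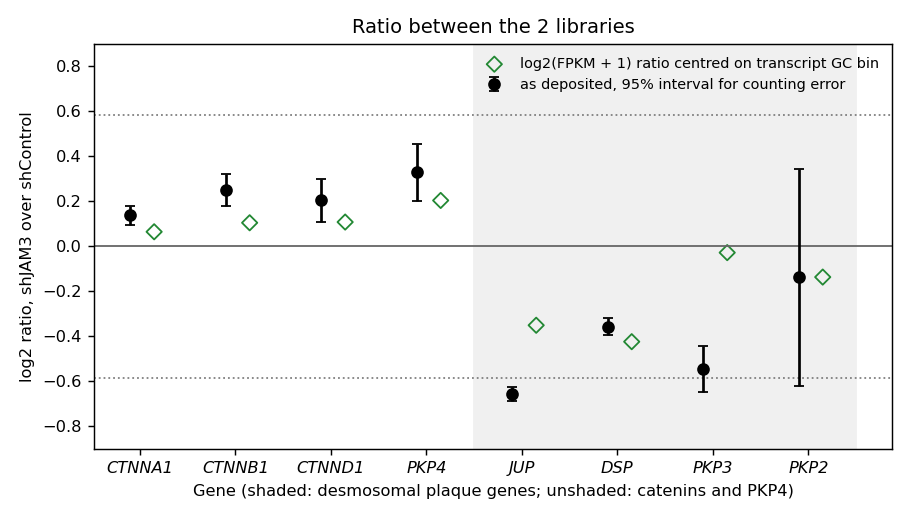
Log2 ratio of shJAM3 to shControl for the 8 genes from FPKM as deposited (black, bars are 95% intervals for counting error) and on the log2(FPKM + 1) scale after centring on the transcript GC bin (open diamonds), with dotted lines at 1.5-fold and the desmosomal plaque genes shaded. After centring PKP3 sits near 0, and JUP and DSP stay below it at -0.35 and -0.42. CTNNA1, CTNNB1, CTNND1 and PKP4 stay above it, at 0.065, 0.11, 0.11 and 0.20.

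The balance between plakoglobin and beta-catenin RNA differed between the libraries. JUP had 15.6 times the FPKM of CTNNB1 in shControl and 8.30 times in shJAM3, and the ratio of JUP relative to that of CTNNB1 was 0.533 (0.505 to 0.562). On the log2 scale this was -0.91. With each gene centred on its GC bin it was -0.40 from ratios without a pseudocount and -0.46 from log2(FPKM + 1) ratios. The size of the excess depends on gene length. The deposited lengths join all annotated exons of a gene, which gives 11927 bases for CTNNB1 and 4942 for JUP, while their longest principal coding transcripts have 4735 and 3497. Per kilobase of the latter, JUP exceeded CTNNB1 8.74 times in shControl and 4.66 times in shJAM3. The ratio between libraries is the same with either length. JUP took 54.2% of the summed FPKM of the 8 genes in shControl and 44.8% in shJAM3, and CTNNA1 took 13.2% and 19.0%.

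By FPKM the order of levels differed between the libraries in 1 pair of neighbours. It ran JUP, DSP, CTNNA1, PKP3, CTNNB1, CTNND1, PKP4 and PKP2 in shControl, with no overlap of counting intervals between neighbours. In shJAM3, CTNNA1 and DSP exchanged places at 66.8 FPKM (65.5 to 68.1) and 64.7 FPKM (63.5 to 65.9), and their intervals overlapped. Per kilobase of principal transcript, CTNNA1 stood above DSP in both libraries, and PKP3 and CTNNB1 exchanged places instead. On that scale, in fragments per kilobase scaled by recovered totals, PKP3 was at 41.8 (39.9 to 43.8) and CTNNB1 at 39.6 (38.2 to 41.1) in shControl, with overlapping intervals. In shJAM3 they were at 29.4 (27.9 to 31.0) and 48.5 (46.9 to 50.0), with no overlap.

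Other annotated genes overlap few of the members' bases. JUP, CTNNB1, DSP and PKP3 share no exon base with another gene and no stretch of 50 bases of their principal transcript with transcripts of another gene. LRRTM2 covers 5.04% of the CTNNA1 exon bases on the other strand and had 2 and 4 fragments. TMX2-CTNND1, a read-through gene, covers 3.65% of those of CTNND1 and had no fragment, and AP001931.1 covers 3.28% and had 1 fragment in shControl. PKP4-AS1 covers 4.39% of the PKP4 exon bases and had 1 fragment in shJAM3. For JAM3, which is not a member, NCAPD3 covers 8.53% of the exon bases on the other strand and had 3847 and 5472 fragments. A processed pseudogene, AC005840.3, shares 7.10% of 50-base stretches with PKP2 and had no fragment.

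Beside the members, 10 lists of related genes held 72 measured genes, and 14 of these were past 1.5-fold on the log2(FPKM + 1) scale. Of all measured genes, 9.82% were at least 1.5-fold lower and 7.11% at least 1.5-fold higher. Among the 14, BTRC, CCND1 and PTPN11 were higher and the rest lower. With GC centring 7 of the 14 were still past it, and 2 others were past it then alone. The rule understates the change of low genes, and FBXW11, FER, KRT7 and SRC were past 1.5-fold without a pseudocount.

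Of the desmosomal cadherins, which the plaque proteins bind, those measured were higher in shJAM3. Of 7 desmogleins and desmocollins these were DSG2 and DSC2. DSG2, the desmoglein of simple epithelia, was at 32.3 and 45.1 FPKM, with a ratio of 1.40 (1.33 to 1.46). DSC2 was at 1.18 and 1.56 FPKM, with a ratio of 1.32 (1.11 to 1.58). DSG3 and DSC3 of stratified epithelia had at most 22 fragments in a library, and DSG1, DSG4 and DSC1 had none. With GC centring the log2 ratios were 0.29 for DSG2 and 0.04 for DSC2.

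Periplakin and envoplakin, relatives of desmoplakin, were lower. Of 6 other plaque linkers, all measured, 4 were lower and 2 higher, with a median log2 ratio of -0.27, or -0.08 after GC centring. The periplakin gene PPL was at 66.8 FPKM in shControl against 35.9 FPKM in shJAM3, a ratio of 0.537 (0.518 to 0.557), and the envoplakin gene EVPL was at 18.2 and 10.6, a ratio of 0.584 (0.545 to 0.626). Both were past 1.5-fold, and they are partners in the cornified envelope. GC centring took PPL from a log2 ratio of -0.88 to -0.67 and EVPL from -0.72 to -0.23. Of the filaments that desmosomes anchor, 5 of 6 were measured, with 3 higher and 2 lower. The 1 past 1.5-fold was DES, the muscle filament desmin, at 7.11 and 4.26 FPKM. Of the simple-epithelial keratins, KRT8 and KRT18 had ratios of 1.11 and 1.14. KRT7 was lower, at 140.3 and 93.4 FPKM with a ratio of 0.666 (0.645 to 0.688), just short of 1.5-fold at a log2 ratio of -0.58, and at -0.20 after GC centring. DES was at -0.24 after GC centring, short of 1.5-fold.

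On the adherens junction side, CDH1, the epithelial cadherin, was barely detected. It had 16 fragments in shControl against 25 in shJAM3, a ratio of 1.44 (0.739 to 2.88), so no difference was detectable. CDH2, the neural cadherin, was at 8.11 and 8.72 FPKM with a ratio of 1.07 and an interval that included 1, and CDH24 was at 9.95 and 9.29. Of 11 cadherins these and CDH13 were the 3 measured, and none was past 1.5-fold. CDH13 was lower, at 7.24 FPKM in shControl against 6.13 FPKM in shJAM3, a ratio of 0.846 (0.780 to 0.918). Its log2 ratio of -0.21 went to -0.34 with GC centring. Of 13 actin linkers of the junction 10 were lower, beside 49.5% of all measured genes, with a median log2 ratio of -0.26, or -0.17 after GC centring. Those past 1.5-fold were vinculin (VCL), which binds stretched alpha-catenin (ratio 0.639), CAMSAP3, which ties microtubule minus ends to the junction (0.468), and SHROOM3, an activator of apical constriction (0.580). GC centring left VCL at -0.76 and SHROOM3 at -0.69 and took CAMSAP3 from -1.02 to -0.52, short of 1.5-fold.

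Among other catenin relatives, ARVCF, a p120 catenin homologue, was at 3.90 FPKM in shControl against 1.39 FPKM in shJAM3. Its ratio of 0.355 (0.288 to 0.436) was past 2-fold, and its log2 ratio of -1.04 was -0.54 after GC centring, short of 1.5-fold. CTNNAL1, an alpha-catenin-like gene, was at 27.1 FPKM in both libraries. CTNNA2, CTNNA3 and CTNND2, catenins of neurons and heart muscle, had at most 2 fragments each.

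**Figure D4:**
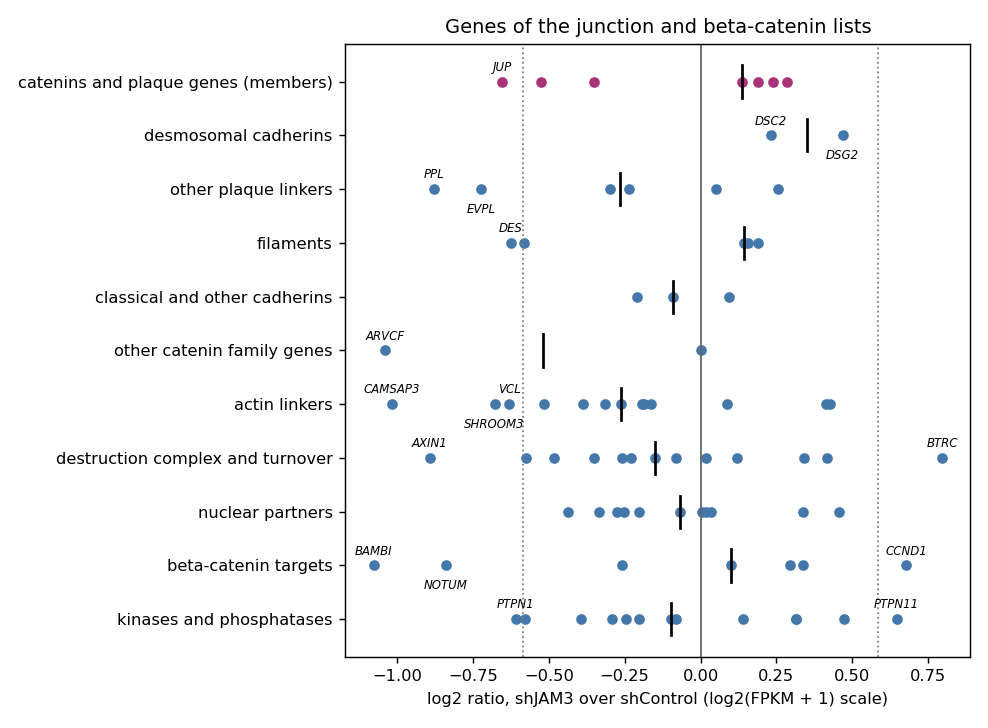
Log2 ratio between the libraries (shJAM3 over shControl, log2(FPKM + 1) scale) for the measured genes of each list (points), with the median of each list (vertical bars) and dotted lines at 1.5-fold; genes past 1.5-fold and the desmosomal cadherins are named. The 2 desmosomal cadherins lie above 0, while PPL, EVPL, VCL, SHROOM3, CAMSAP3 and ARVCF lie below the lower dotted line, as does JUP. DES, AXIN1, NOTUM, BAMBI and PTPN1 also lie below that line, and BTRC, CCND1 and PTPN11 lie above the upper one.

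Genes that govern or read beta-catenin went both ways. Of 13 genes of the destruction complex and beta-catenin turnover 5 were higher and 8 lower, with a median of -0.15. The scaffold AXIN1 was at 31.8 and 16.7 FPKM, with a ratio of 0.524 (0.497 to 0.554), and BTRC, the F-box protein that recognises phosphorylated beta-catenin, was at 5.25 and 9.85, a ratio of 1.88 (1.69 to 2.09). After GC centring BTRC was still past 1.5-fold at 0.67, and AXIN1 was short of it at -0.51. The kinase gene GSK3B and FBXW11, a relative of BTRC, were past it on the log2(FPKM + 1) scale only after centring, at -0.66 and -0.73, from -0.48 and -0.58. Of 13 nuclear partners 11 were measured, 5 higher and 6 lower with none past 1.5-fold, and the highest by mean FPKM were PYGO2 (ratio 0.820) and CTNNBL1, a beta-catenin-like gene, with a ratio of 1.03 (0.944 to 1.11).

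Of 13 common beta-catenin targets 7 were measured, 4 higher and 3 lower, with a median of 0.10. CCND1, the cyclin D1 gene, was at 21.2 and 34.5 FPKM (ratio 1.63), while the WNT inhibitor NOTUM (0.541) and BAMBI, a decoy receptor of the TGF-beta family (0.427), were lower. After GC centring CCND1 was at 0.67 and BAMBI at -1.03, and NOTUM was short of 1.5-fold at -0.34. AXIN2, a widely used target, was at 1.30 and 0.918 FPKM with a ratio of 0.709 (0.523 to 0.957). Of 13 kinases, phosphatases and processing enzymes that act on catenins 5 were higher and 8 lower. The phosphatase genes PTPN11 (ratio 1.59) and PTPN1 (0.641) were past 1.5-fold. GC centring left PTPN1 at -0.62 and took PTPN11 to 0.46, short of 1.5-fold. The ratios of FER (1.74) and SRC (0.632), both tyrosine kinase genes, were at least as far from 1, but not past 1.5-fold on the log2(FPKM + 1) scale.

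The labelled cell type was compared with marker lists. Of 11 ovarian carcinoma and epithelial markers 6 were measured, led by FOLR1 at 845.3 and 1012 FPKM, while WT1 had 1 and 0 fragments, EPCAM was at 0.904 and 0.690 FPKM and PAX8 at 1.12 and 0.527. The leukocyte list summed to 2.44 and 0.925 FPKM with PTPRC at 0 in both. Most of that sum was CD14, at 2.28 and 0.763 FPKM from 66 and 24 fragments, with a ratio of 0.335 (0.201 to 0.542). The endothelial list summed to 0.539 and 0.475 FPKM, mostly CDH5 at 0.396 and 0.345, with KDR at 0. The fibroblast list summed to 17.4 and 14.4 FPKM, nearly all COL1A1 and PDGFRB, with COL1A2 and PDGFRA at 0. The list of stratified epithelium summed to 32.4 and 27.3 FPKM, nearly all KRT10, with KRT5 and KRT1 at 0.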

How the data were processed

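Poly(A)-selected RNA of 2 A2780 cultures was sequenced, 1 library per group. The authors deposited FPKM for 58735 genes with symbols, coordinates and lengths. Tools listed in the submitters' processing notes, without roles, include featureCounts 1.5.0-p3 and HISAT2 2.0.5, and the sources used here do not give the build. All 58735 identifiers, positions and lengths (gene length in bases, the union of exons) were equal to GENCODE 29 on GRCh38. No step that marks the strand is described in the labels' protocols.

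Whole fragments were recovered for 100% of values above 0 (tolerance 0.001). The deposited FPKM imply library sizes 0.987 and 1.01 times the recovered totals. Of rows that share a symbol the highest was kept (57169 genes). Log2 ratios used a pseudocount of 1 FPKM, and single-gene ratios none. Intervals are conditional binomial for a gene, exact odds ratios for a gene pair and Poisson for a level (scipy 1.17.1), all for counting error only, since no molecular identifiers were described. GC content is that of the longest GENCODE 29 transcript. Principal transcripts are the longest with APPRIS principal and CCDS tags. The pairwise statistics and size rules were tested on simulated counts.

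The members, the 10 gene lists and the naming rule (all members, JAM3, list genes past 1.5-fold or else the 2 most abundant, overlapping genes) were chosen with earlier results of these data known. Marker genes, PKP1, CDH13, KRT7, KRT8, KRT18, AXIN2, FBXW11, FER, GSK3B, SRC and the genes with almost no fragments are named beside that rule, after their values were seen. Alternatives were another pseudocount, 2 scalings, GC, length and level centring, and other filters.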

Additional observations from a re-analysis of the deposited data

How the results depend on the processing

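With 1 library per group, leaving out a replicate was not possible, and depth limits PKP2, CDH1 and JAM3. No paired analysis was possible because each group holds 1 library and no test was made. The count of members past 2-fold was 0 under all 8 alternatives. The count past 1.5-fold, which is JUP, was 0 with GC centring and 0 with centring on level and GC, and 1 under the other 6. The median log2 ratio of the measured members, 0.14, was 0.065 with GC centring, -0.024 with centring on level and GC, and 0.041 with no filter, which adds PKP2. JUP relative to CTNNB1 was -0.91 on the log2 scale, -0.40 with GC centring of ratios without a pseudocount (-0.46 with GC centring of log2(FPKM + 1) ratios), -0.95 with length centring and -0.89 from log2(FPKM + 1). Of single members, CTNNA1 reversed, to -0.046 with centring on level and GC. JUP was then at -0.28 and DSP at -0.54. Scaling by fragment totals put JUP at -0.61 and DSP at -0.31. The median of the desmosomal cadherins was 0.17 with GC centring, and 0 with no filter, where 5 genes near or at 0 enter. That of other catenin relatives was 0.00011 with no filter, of the opposite sign. That of other plaque linkers was -0.082 with GC centring and -0.35 with a pseudocount of 0.1 FPKM, and that of filaments 0.076 with GC centring. The causes of these shifts were not tested. Counting JUP and CTNNB1 per principal transcript, an alternative chosen after the annotation was seen, changed the log2 excess of JUP from 3.96 to 3.13 in shControl and from 3.05 to 2.22 in shJAM3.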
